A study of Mus musculus with 18 samples.

Results

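Later embryoid bodies without LIF were set against early ones: the 4 arrays of D3-LIF and D4-LIF against the 4 arrays of D1-LIF and D2-LIF. The members were all clones that carried 1 gene symbol and had a value on all 8 arrays, 5796 clones of 4697 genes out of the 15360 clones printed. No clone and no gene passed the test (adjusted p under 0.05), so every difference below is a measured value that was not separated from the spread between arrays. Among genes of undifferentiated ES cells, 15 of 18 measured lay lower in the later bodies (83.3%, against 59.3% of all genes). Some other lists had like shares, such as small subunit ribosomal proteins (85.2%). The median difference of the ES cell genes was −0.27 on the log2 scale. With the sign of the Cy3 ratios turned, since their direction is in doubt, 10 of these 18 genes lay lower and their median was −0.05. Without the D2-LIF array in Cy5 the median was −0.11. Dppa5a, Zfp57, Jarid2 and Pou5f1 had the lowest values on the ratios as deposited. With the Cy3 sign turned they lay at 0.28, −0.42, −0.225 and −0.26. The clone of smallest p was Mybl2, a transcription factor of dividing cells, which differed by −0.41 on the log2 scale, by nearly as much in Cy3 as in Cy5, and by −0.03 with the Cy3 sign turned. Of the mesoderm and neurectoderm lists only Gata4, Sox11 and Stmn1 were measured on all 8 arrays, and the measured endoderm, collagen and globin genes did not pass the test in either direction.

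Embryoid bodies (EBs) are aggregates of ES cells that differentiate in suspension. The cytokine LIF acts through its receptor, gp130 and STAT3 to hold mouse ES cells undifferentiated; without it, an outer layer of primitive endoderm forms, the inner cells pass through an epiblast-like state in which the network around Pou5f1 and Nanog is lowered, and precursors of the germ layers follow. By time in culture the early bodies are closest to the ES cells, and in later bodies germ layer genes are usually first seen. In its own bodies the study saw by RT-PCR that markers such as Pou5f1 (Oct4) and Nanog could dip early. Their expression normally came back in the later bodies.

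The cells were IMT11 ES cells, a line from 129 mice, kept with LIF before aggregation. The later (D3-LIF and D4-LIF) and the early (D1-LIF and D2-LIF) bodies all started as hanging drops of 1000 cells in alpha-MEM with 10% fetal and 10% newborn bovine serum and no added LIF, were set free in medium after Day 1 where they were kept longer, and were collected on the day that names them; an array therefore holds RNA of many bodies of 1 cell line. Each day had 2 arrays of the NIA 15K mouse cDNA set, printed over 2 slides, 1 with the sample in Cy3 and 1 with the sample in Cy5, always against a pooled control. The labels describe the pool as RNA of Day 1 to Day 4 EBs and the study's methods as RNA of all samples, so whether it held Day 0 ES cells is unclear. The labels tell of 2 sets of cultures but not which array came from which, so the dye term of the fit may take up a difference between sets, and p-values measure only the spread between these arrays.

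All values are log2 ratios, centred on the median of all clones of the array and slide, and a positive difference means a higher ratio in the later bodies. Sample over pool is the likely direction of every ratio, since the labels name the sample as the first channel, but it is not settled. On slide 2 the 4 Cy5 arrays correlated at 0.789 to 0.926 with each other, while the D1-LIF and D3-LIF arrays in Cy3 correlated with them at 0.396 to 0.581 and the D2-LIF and D4-LIF arrays in Cy3 at −0.636 to −0.294. Values with the opposite sign on the Cy3 arrays (below, "Cy3 arrays turned") are therefore given for the main counts, many list medians and the clones and genes described by array. Values without such a figure beside them hold only for the ratios as deposited. The D2-LIF array in Cy5 had no value for most of slide 1, which left 796 clones on slide 1 and 5000 on slide 2. In RNA of whole bodies, fewer cells of a type and less RNA per cell cannot be told apart.

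Across the 8795 clones tested, with or without a symbol, 0 were called (0%) by limma with the dye as a block, and the smallest adjusted p was 0.968. At an unadjusted p under 0.05 there were 237 clones, of which 106 lay higher (1.21%) and 131 lower (1.49%) in the later bodies. Of the 5796 clones with 1 symbol, 52 lay higher (0.897%) and 102 lower (1.76%), shares near those of all clones. With the Cy3 arrays turned, 0 clones were called and 275 had a p under 0.05, of which 233 lay higher and 42 lower. At gene level, with the clones of a symbol averaged, 0 of 4697 genes were called, and 43 lay higher (0.915%) and 76 lower (1.62%) at an unadjusted p under 0.05; with the Cy3 arrays turned 0 were called and these were 134 and 27.

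In the joint fit of both dyes the difference was small for most clones. Of the 8795 clones tested, 197 differed by 2-fold or more in this fit, 599 on the Cy5 arrays alone and 10 on the Cy3 arrays alone. The dyes did not agree (below), so a small joint value does not show that a gene differed little. The median difference of the 5796 clones was −0.03, and 90% lay between −0.51 and 0.28. The slides differed: the same range was −0.30 to 0.18 on slide 2 and −1.19 to 1.05 on slide 1. On slide 2 the 95% confidence interval of the difference stayed within 2-fold in either direction for 4662 of 5000 clones (93.2%), and on slide 1 for 57 of 796 (7.16%). A narrow interval of the joint fit likewise does not show that a gene differed little, as the fit averages dyes that did not agree.

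Without a test, 127 clones differed by 2-fold or more, of which 124 were on slide 1, 45 higher and 79 lower. The other 3, on slide 2, were all higher: a clone of Hnrnpk by 2.34, a clone of A730082K24Rik by 1.19 and a clone of Ptpa by 1.01 on the log2 scale. Hnrnpk encodes an RNA-binding protein of nuclear pre-mRNA, and Ptpa an activator of the phosphatase PP2A. Neither gene's other clones followed: the other Hnrnpk clones differed by 0.09 and −0.04, and the other Ptpa clone by −0.22.

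The difference was also taken within each dye, 2 later against 2 early arrays. It had the same sign in both dyes for 2896 of the 5796 clones (50.0%). Its correlation between dyes across clones, which share their arrays and slides and are not independent replicates, was −0.07 on slide 2 and 0.16 on slide 1. The SD of the difference was 0.55 in Cy5 and 0.20 in Cy3, so the Cy5 arrays set most of the large values. Over all 8795 clones, both later arrays lay above both early ones within each dye for 237 (2.69%) and below them for 248 (2.82%). Among the clones with 1 symbol these were 115 (1.98%) and 171 (2.95%). Without regard to dye, all 4 later arrays lay above all 4 early ones for 91 clones (1.03%) and below for 67 (0.762%), of which 38 and 46 carried 1 symbol.

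**Figure D1:**
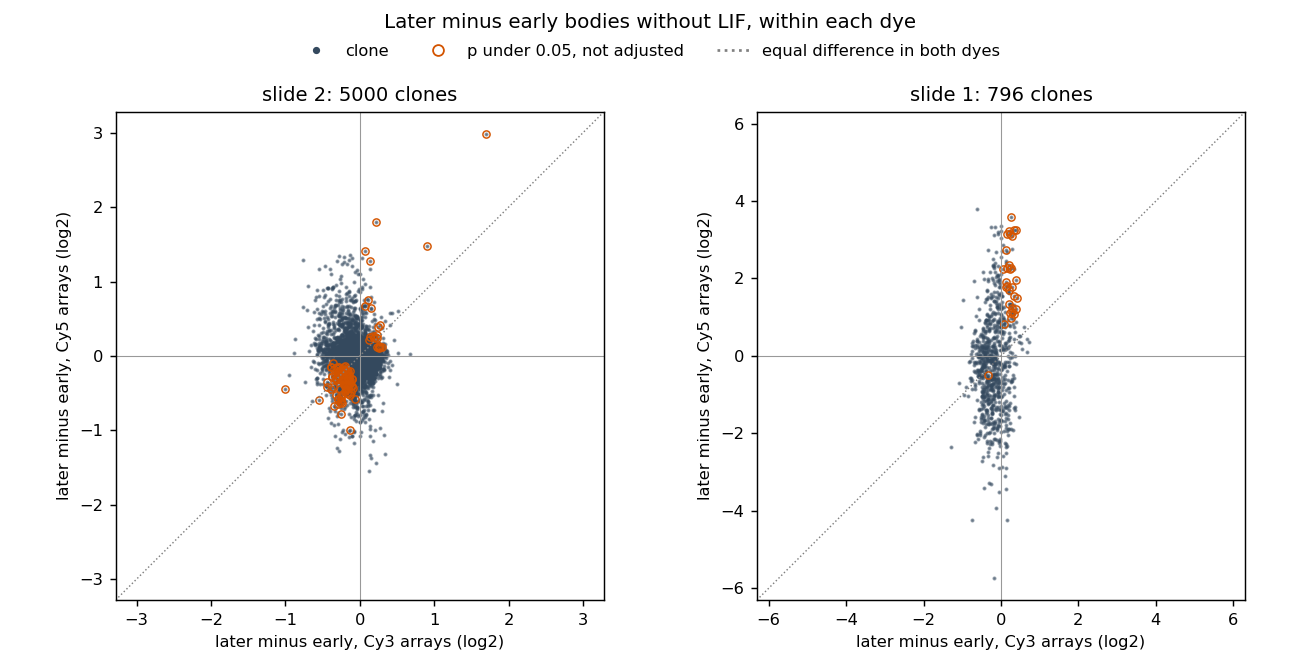
Each point is a clone with 1 symbol, with its difference (later minus early, log2) on the Cy3 arrays along x and on the Cy5 arrays along y, slide 2 on the left (5000 clones) and slide 1 on the right (796 clones, wider axes); ringed clones had an unadjusted p under 0.05. The points spread far more along y than along x (SD 0.55 in Cy5 and 0.20 in Cy3) and do not follow the dotted line of equal difference.

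The 12 clones of smallest p in each direction, among those of 1 sign in both dyes, are described next; none was called, and each had an adjusted p of 0.968. They were picked for their p, so their p is a description. Mybl2 (B-Myb), which drives genes of DNA replication and mitosis and is abundant in ES cells, had −0.45 in Cy3 and −1.23 in Cy5 in D3-LIF bodies and −0.27 and −1.18 in D4-LIF bodies, against −0.01 and −0.78 in D1-LIF bodies and 0.05 and −0.73 in D2-LIF bodies. Within each dye both later arrays were below both early ones, although the later Cy3 arrays were above the early Cy5 arrays. The difference was −0.41 ± 0.07 (SE, adjusted p = 0.968 by limma), −0.38 in Cy3 and −0.45 in Cy5. The difference became −0.03 with the Cy3 arrays turned.

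Eif4g2, which encodes a translation initiation factor that works without the cap-binding protein, had −0.10 and −0.42 in Cy3 and Cy5 in D3-LIF bodies and −0.16 and −0.41 in D4-LIF bodies, against 0.17 and 0.36 in D1-LIF bodies and 0.16 and 0.11 in D2-LIF bodies. All 4 later arrays were below all 4 early arrays, a difference of −0.47 ± 0.10 (SE), and −0.18 with the Cy3 arrays turned. Its other 3 clones differed by −0.35, 0.32 and 0.13, so the clones of the gene lay on both sides of 0. A clone of Rpl35, a protein of the large ribosomal subunit, differed by −0.51 ± 0.13 with later arrays of −1.46 to 0.20 overlapping early arrays of −0.87 to 0.36, and its other clones by −0.63 and −0.02. The first of these was −0.17 with the Cy3 arrays turned.

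Among the rest, D8Ertd738e differed by −0.44 and Rwdd1 by −0.44, both with all later arrays below all early ones. Eef1e1, an auxiliary factor of the tRNA synthetase complex, differed by −0.42. Rab7, the GTPase of late endosomes, lay at −0.28, Ipo4, a nuclear import receptor, at −0.23, and Ahcy, which clears S-adenosylhomocysteine, at −0.21. Smg6, the endonuclease of nonsense-mediated decay, differed by −0.21 and Supt6, a histone chaperone of transcript elongation, by −0.24, with separate groups in both. The Ptpa clone of this set differed by −0.22.

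The higher clones began with Hnrnpk, whose clone of smallest p had 2.11 and 0.71 in Cy3 and Cy5 in D3-LIF bodies and 1.68 and −0.81 in D4-LIF bodies, against −0.73 and −3.35 in D1-LIF bodies and 1.13 and −2.72 in D2-LIF bodies. Both early arrays in Cy3 were above the D4-LIF array in Cy5, so the groups overlapped, and the difference was 2.34 ± 0.55 (SE), or 0.64 with the Cy3 arrays turned. A730082K24Rik, to which no role is given here, had 0.67 and −3.18 in D3-LIF bodies and 1.37 and −2.42 in D4-LIF bodies, against −0.25 and −4.52 in D1-LIF bodies and 0.49 and −4.04 in D2-LIF bodies. Each later array was above both early arrays of its dye, by 1.19 ± 0.29 on the log2 scale, or by 0.29 with the Cy3 arrays turned.

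Fos, a subunit of the AP-1 transcription factor that is induced at once by growth factors and cytokines, had 0.02 and 0.08 in Cy3 and Cy5 in D3-LIF bodies and 0.30 and 0.04 in D4-LIF bodies, against −0.09 and −0.26 in D1-LIF bodies and −0.06 and −0.18 in D2-LIF bodies. All 4 later arrays were above 0 and all 4 early arrays below it, a difference of 0.26 ± 0.08 (SE, adjusted p = 0.968 by limma). It was 0.03 with the Cy3 arrays turned. Agr2, a disulfide isomerase of secretory cells, lay 0.19 higher, and its 3 clones had the same sign (0.19, 0.14 and 0.10). Nfe2l1, a transcription factor of proteasome genes, differed by 0.20 in this clone and by −0.12 and −0.97 in its others. Hdac10, a polyamine deacetylase, differed by 0.18.

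The other 6 higher clones were on slide 1. They were Ptgr2 (0.62), a prostaglandin reductase, Nadk (0.96), the NAD kinase, Grb7 (0.68), a receptor adaptor, Sema6d (0.77), a semaphorin, Ccdc47 (1.03), a protein of the endoplasmic reticulum, and Ctdnep1 (0.77), a phosphatase of the nuclear envelope. In all of them the early Cy5 arrays were the lowest: the later arrays of Sema6d lay between −0.06 and 0.12, while its early arrays in Cy5 read −1.14 and −1.40. Over the tested slide 1 clones the D1-LIF array in Cy5 had a median of −1.86 and the D2-LIF array in Cy5 had the widest spread (SD 2.10). Of the 24 clones, 6 higher (Ptgr2, Grb7, Fos, Agr2, Nfe2l1 and Hdac10) and 5 lower (Eif4g2, D8Ertd738e, Rwdd1, Smg6 and Supt6) had groups that did not overlap. Over all 8795 clones the shares were 1.03% higher and 0.762% lower. The 24 were picked for small p, which favours separate groups, so this count is a description. With the Cy3 arrays turned, 8 of the 24 changed sign, namely Agr2, Nfe2l1, Hdac10, Rab7, Ipo4, Ahcy, Supt6 and Ptpa.

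**Figure D2:**
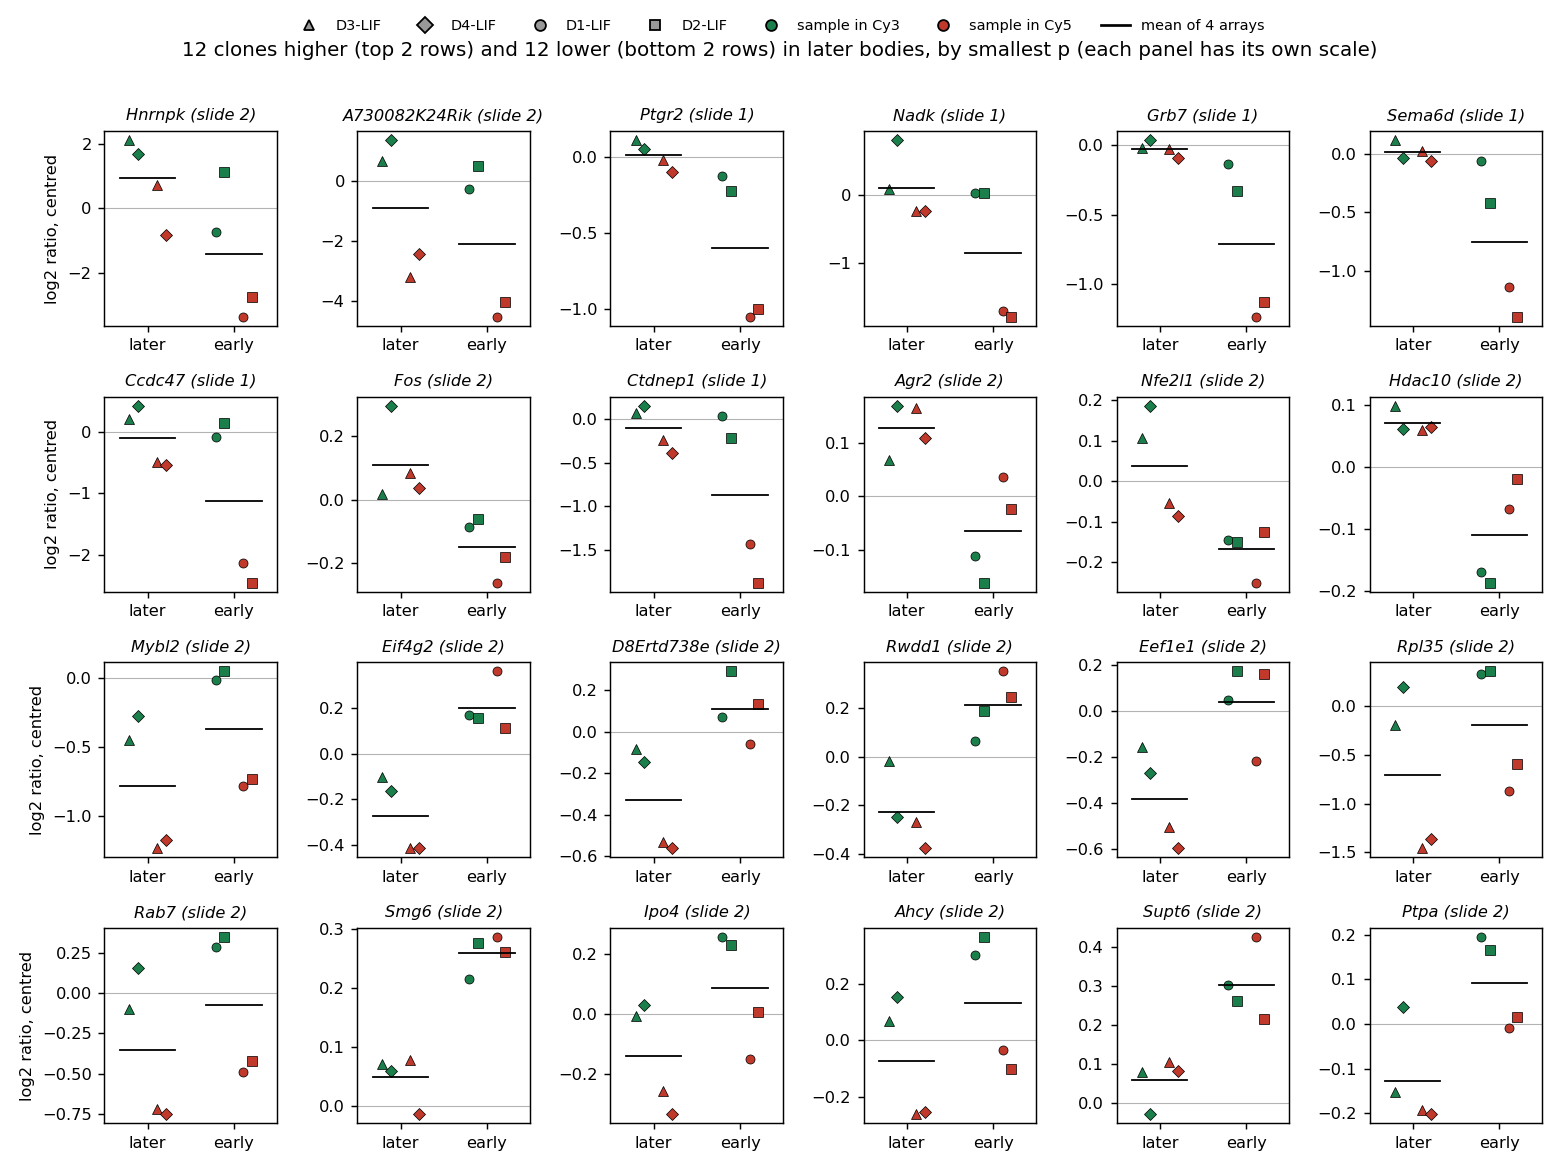
The panels give the log2 ratio, centred, of 24 clones on each of the 8 arrays, later bodies (D3-LIF triangles, D4-LIF diamonds) on the left and early bodies (D1-LIF circles, D2-LIF squares) on the right, green for the sample in Cy3 and red for Cy5, with the mean of 4 arrays as a line; each panel has its own scale. In Eif4g2 all later points are below the early ones, in Fos all are above, and in Hnrnpk the groups overlap.

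Lower clones were gathered in some places of the print. Of the 131 lower clones at an unadjusted p under 0.05, 71 (54.2%) lay in 3 of the 96 print grids, which hold 480 of the tested clones (5.46%); 9 of the 12 lower clones named above lay in grids 50 to 53. On slide 1, all 48 higher clones lay in the first 18 grids, of which 17 had a median difference above 0, while all 30 other grids had a median below 0. With each array centred within each grid, 153 of 8795 clones (1.74%) had a p under 0.05. Of the 24 named clones, which were picked for small p, 12 were among them. Mybl2 then differed by −0.46, Hnrnpk by 2.23, Fos by 0.18 and Eif4g2 by −0.26, while Smg6 differed by −0.04 and Supt6 by −0.07. The part of the print position in these values was not tested further.

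**Figure D3:**
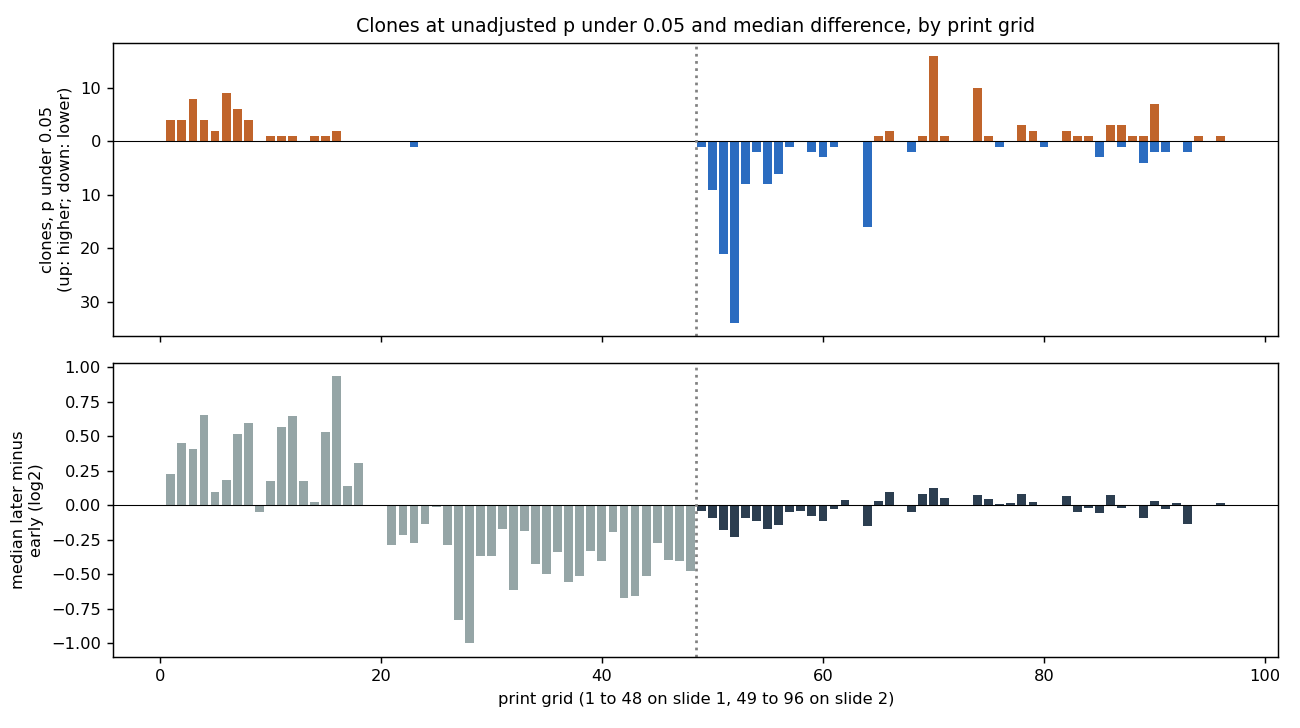
Above, the number of clones at an unadjusted p under 0.05 in each print grid, with higher clones drawn up and lower clones drawn down; below, the median difference (later minus early, log2) of the tested clones of the grid. Grids 1 to 48 are on slide 1 and 49 to 96 on slide 2; lower clones gather in grids 51 (21), 52 (34) and 64 (16), and medians on slide 2 stay between −0.23 and 0.13.

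Genes of undifferentiated ES cells formed the list whose median lay farthest below 0 after the proteasome. Of 42 listed genes, 18 were measured on all 8 arrays; 0 were called, 15 lay below 0 (83.3%, against 59.3% of all genes) and 12 were below 0 in both dyes (33.3% of all genes were). Their median was −0.27 beside −0.03 for all genes, −0.22 on slide 2 alone and −0.26 with centring within grids. With the Cy3 arrays turned it was −0.05, with 10 of 18 below 0. The median followed single arrays: it was −0.39 without the D1-LIF array in Cy5 and −0.11 without the D2-LIF array in Cy5. Some other lists had like shares below 0. Examples were 89.5% of 19 antioxidant, ferritin and thioredoxin genes, 85.2% of 27 small subunit ribosomal proteins and 80.0% of 15 DNA replication genes.

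Dppa5a, an RNA-binding protein made in ES cells and germ cells, had the lowest value of the list. It had −1.31 and −2.60 in Cy3 and Cy5 in D3-LIF bodies and −1.22 and −1.83 in D4-LIF bodies, against −0.43 and −2.25 in D1-LIF bodies and −0.10 and −1.29 in D2-LIF bodies. In Cy3 the later arrays were clearly the lower ones, in Cy5 the D4-LIF array was above the D1-LIF array. The difference was −0.72 ± 0.28 (SE, adjusted p = 0.982 by limma), and 0.28 with the Cy3 arrays turned. Mybl2 (above) was the other gene of the list at p under 0.05.

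The core factors were measured with little precision. Pou5f1 (Oct4), on slide 1, had −0.40 and −1.88 in Cy3 and Cy5 in D3-LIF bodies and 1.16 and −1.34 in D4-LIF bodies, against −0.40 and −2.68 in D1-LIF bodies and 1.59 and 0.91 in D2-LIF bodies. The days were spread widely in both dyes, and the difference of −0.47 had a 95% interval of −2.54 to 1.60; with the Cy3 arrays turned it was −0.26. Nanog, also on slide 1, differed by −0.09 (−0.40 with the Cy3 arrays turned) with an interval of −1.45 to 1.27, which leaves more than 2-fold in either direction.

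Other genes of the list lay mostly below 0. Zfp57, which guards imprints, differed by −0.63, Jarid2, a partner of the Polycomb complex PRC2, by −0.57, Mkrn1, a ubiquitin ligase, by −0.43, and Dnmt3l, a cofactor of DNA methylation, by −0.35. Trim28, the corepressor bound by KRAB zinc finger proteins, lay at −0.31, Fbxo15, a target of Pou5f1 and Sox2, at −0.27, Rif1, a telomere and replication timing factor, at −0.27 and Dppa3 (Stella) at −0.24. The 3 genes above 0 were the transcription factors Klf5 (0.19), Tfcp2l1 (0.16) and Nr5a2 (0.13). In Zfp57 and Jarid2 the D2-LIF array in Cy5 was the highest, at 1.04 and 1.11, with every other array of these genes at 0.30 or below.

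**Figure D4:**
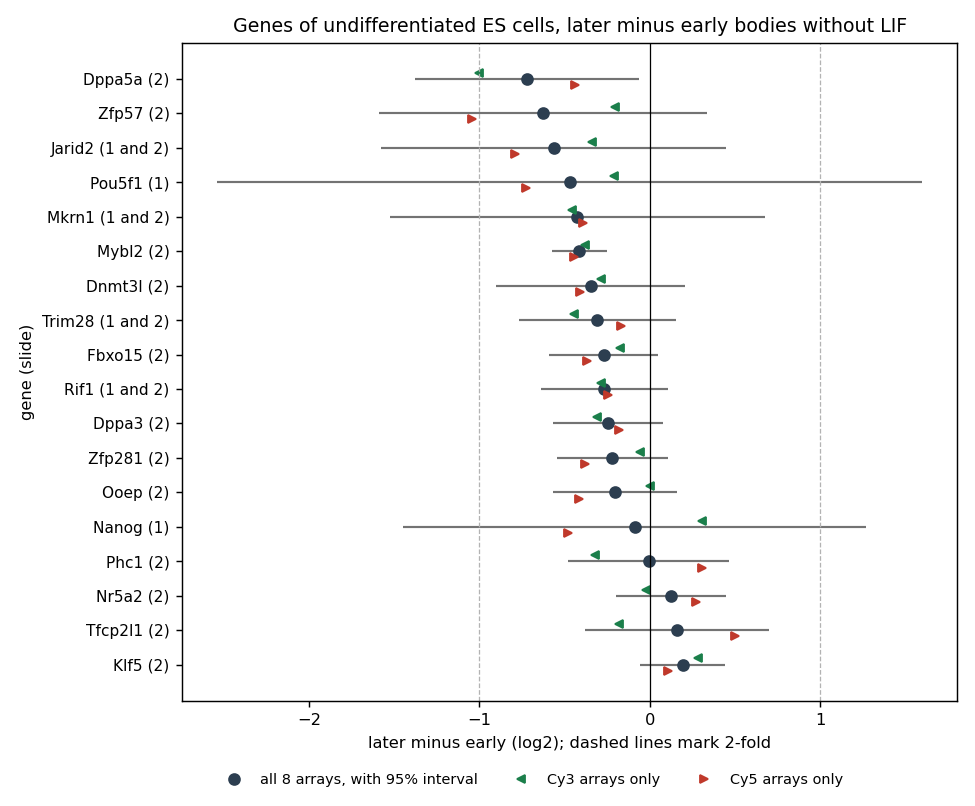
Each row is a gene of undifferentiated ES cells with its slide, and the dot gives the difference (later minus early, log2) over 8 arrays with its 95% interval; triangles give the difference on the Cy3 arrays (green) and on the Cy5 arrays (red), and dashed lines mark 2-fold. Of the 18 dots 15 lie below 0, and the interval of Pou5f1 (−2.54 to 1.60) is the widest.

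Genes of the epiblast and of endoderm gave few values. Of 15 epiblast genes, 5 were measured and 0 were called, with a median of −0.04 (0.09 with the Cy3 arrays turned). Among them Cdh2 (N-cadherin), the adhesion molecule of mesoderm and neural tissue, had −0.04 and −0.07 in Cy3 and Cy5 in D3-LIF bodies and 0.34 and 0.10 in D4-LIF bodies, against 0.03 and −1.57 in D1-LIF bodies and 0.01 and −0.98 in D2-LIF bodies. The early Cy5 arrays were low and the Cy3 arrays of both groups overlapped, with a difference of 0.71 ± 0.27 (SE, adjusted p = 0.982 by limma), 0.13 in Cy3 and 1.28 in Cy5. Cdh2 was above 0 with the Cy3 arrays turned as well (0.58).

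Of 34 genes of primitive, visceral and parietal endoderm, 10 were measured, 6 of them below 0, and 0 were called; their median was −0.11 (0.03 with the Cy3 arrays turned). Values reached from −1.07 (Ctsl, interval −3.215 to 1.082) to 1.29 (Emb, interval −0.22 to 2.80), both on slide 1. Emb differed by 0.13 in Cy3 and by 2.45 in Cy5. Sparc (0.37) and Krt19 (0.18) also lay above 0. The simple keratins of the endoderm epithelium went apart, Krt8 at 0.78 and Krt18 at −0.23. Krt8, on slide 1, had −0.03 and −0.16 in Cy3 and Cy5 in D3-LIF bodies and 0.04 and −0.37 in D4-LIF bodies, against −0.04 and −2.44 in D1-LIF bodies and −0.40 and −0.75 in D2-LIF bodies. Both later arrays were above both early ones within each dye, although the margin in Cy3 was narrow, and the interval of the difference was −0.19 to 1.75; with the Cy3 arrays turned the difference was 0.55. Dab2, an endocytic adaptor of visceral and parietal endoderm, differed by −0.62 (interval −1.96 to 0.73), Gata4 by −0.04 (−0.29 to 0.21) and Lrp2 (megalin) by −0.18. In Dab2 the D2-LIF array in Cy5 read 2.51, while every other array lay between −0.15 and 0.07.

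Of the 16 measured genes of the basement membrane, which the endoderm lays down, 9 lay below 0 and 0 were called. The median of the list was −0.04 (0.02 with the Cy3 arrays turned). Its collagen IV chains lay near 0 with narrow intervals, Col4a1 at −0.05 (−0.27 to 0.17) and Col4a2 at 0.03 (−0.16 to 0.23). The 2 Col4a1 clones differed by −0.15 and 0.05. Dim spots were not filtered, so these intervals do not show that the genes were unchanged. Lamc1, a laminin chain, differed by 0.42 (interval −0.13 to 0.96). Of 25 genes of mesoderm and definitive endoderm only Gata4 was measured, and of 20 neurectoderm genes Sox11 (−0.03) and Stmn1 (−0.28). Of 30 defining markers of ES cells and of the cell types that could arise or be carried along, 19 were on the array and 12 were measured. Values are ratios to a pool, so that they cannot show whether a cell type was present.

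Lists of other cell types lay close to 0: 11 genes of fibroblasts and mesenchyme had a median of 0.00 and 5 red blood cell genes of 0.02. Among the fibroblast genes, Col1a1 (0.05), Col1a2 (0.03) and Col3a1 (0.11) were within 2-fold by their intervals. Of the globin and erythroid genes, Hbb-y differed by 0.02, Hba-x by 0.14, Gata1 by 0.45, Hbb-b1 by −0.17 and Alas2 by −0.28. The interval of Gata1 was −0.64 to 1.55. Its D2-LIF array in Cy5 read −1.74, while its other early arrays lay between −0.02 and 0.17.

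Genes of the signal that was withdrawn did not pass the test. Of 21 genes induced by LIF and STAT3, 7 were measured, 0 were called, and the median was −0.02 (−0.07 with the Cy3 arrays turned). Fos (above) was the only one at an unadjusted p under 0.05. Stat3 itself differed by −0.13, Il6st, which encodes gp130, by −0.02, Sgk1, a kinase, by −0.30 and Myc by −0.31 (interval −1.47 to 0.86).

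Cell cycle genes had intervals about as wide as those of all genes, with median half-widths of 0.28 and 0.27. Of 47 listed, 27 were measured and 0 were called. The median was −0.03, equal to that of all genes, and 0.02 with the Cy3 arrays turned. Intervals of 25 of the 27 were within 2-fold. Cyclins D1, D2 and D3, which couple growth signals to the G1 phase, differed by −0.16 (Ccnd1), −0.06 (Ccnd2) and 0.03 (Ccnd3), and Ccna2 and Ccnb2 by 0.07 and −0.09. The outliers were on slide 1, Cdk1 at 0.95 (interval −0.58 to 2.47) and Ube2c at −0.73 (−2.24 to 0.79). Of 15 DNA replication genes 12 lay below 0, with a median of −0.09 and 0 called (0.10 with the Cy3 arrays turned).

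Genes of protein synthesis and turnover lay below the median of all genes, without a call. Of 71 cytosolic ribosomal protein genes measured 57 lay below 0, none at p under 0.05, with a median of −0.19; with the Cy3 arrays turned the median was 0.21 and 15 lay below 0. The sign thus depended on the direction of the ratios. Without the D2-LIF array in Cy3 the median was 0.00 and without the D1-LIF array in Cy5 it was −0.44. Single genes reached from −0.77 (Rplp2) and −0.71 (Rpl36) to 0.37 (Rpl6 and Rpl10a), and 27 of the 71 had intervals within 2-fold.

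The 22 proteasome subunits measured had the lowest median of any list with 3 or more genes, −0.29, with 17 below 0 and 0 called. It was −0.07 over slide 2 alone, and −0.01 with the Cy3 arrays turned. On slide 2, Psmd4, the ubiquitin receptor of the regulatory particle, differed by −0.32 (interval −0.67 to 0.04) and Psmd6 by −0.46 (−1.02 to 0.11), while Psma2 and Psmb5 of the core differed by 0.04 and −0.03. Chaperones and folding enzymes (36 genes) had a median of −0.21, with 27 below 0, and 0.03 with the Cy3 arrays turned; Cct2, a chaperonin subunit, at −0.31 was the one gene at p under 0.05.

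Of 47 subunits of oxidative phosphorylation, 30 lay below 0 and 0 were called, with a median of −0.09 (0.00 with the Cy3 arrays turned). Atp5b, the catalytic subunit of ATP synthase, had −0.33 and −1.85 in Cy3 and Cy5 in D3-LIF bodies and −0.06 and −1.83 in D4-LIF bodies, against 0.02 and −1.56 in D1-LIF bodies and 0.32 and −1.18 in D2-LIF bodies. Within each dye both later arrays were below both early ones, the difference was −0.42 ± 0.12 (SE, adjusted p = 0.982 by limma), and the clones gave −0.43 and −0.40. With the Cy3 arrays turned it was −0.05. Ndufb11 of complex I differed by −0.29.

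Over all 32 lists, 538 different genes were measured and 11 had an unadjusted p under 0.05 (2.04%, against 2.53% of all genes), 4 higher and 7 lower. Besides those given above they were Suz12 (0.80), a PRC2 subunit on slide 1, Arpc1a (−0.30) of the Arp2/3 actin complex, Spcs2 (−0.32) of the signal peptidase, and Hnrnpk, whose mean over 3 clones was 0.80. Hypoxia-induced genes (9 genes, median 0.03), adhesion genes (14, 0.02), imprinted genes (16, −0.04) and glycolysis enzymes (12, −0.15) gave no call.

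**Figure D5:**
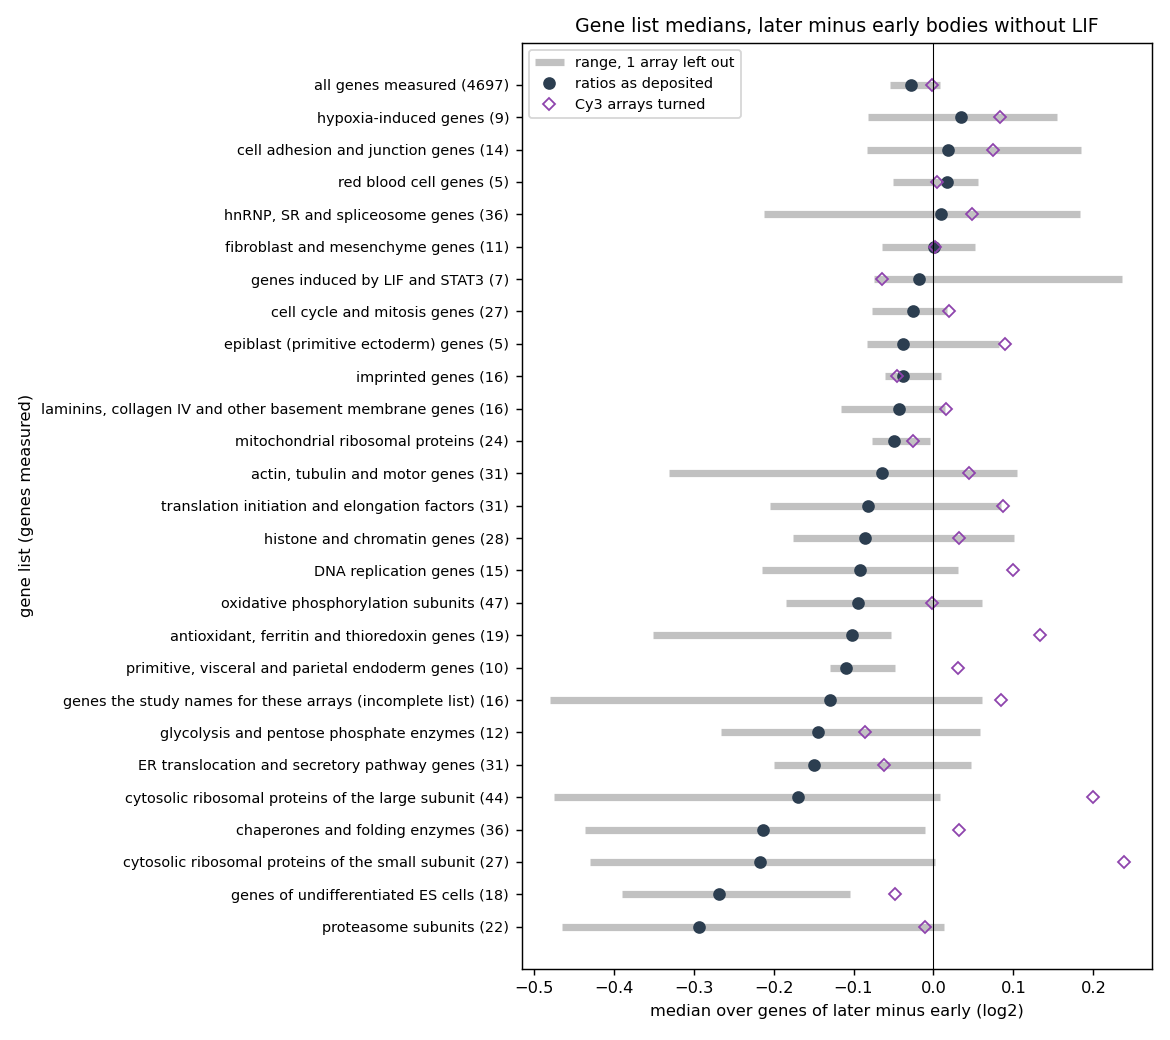
Each row is a gene list with the number of genes measured; the dot gives the median over its genes of the difference (later minus early, log2), the grey bar the range of that median when 1 array is left out at a time, and the open diamond the median with the Cy3 arrays turned. Proteasome subunits (−0.29) and genes of undifferentiated ES cells (−0.27) have the lowest dots, and the diamonds of both ribosomal lists lie on the other side of 0.

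A list of 17 genes that the study names for these arrays, control genes among them, was also looked up. It was chosen on these samples, gives no independent evidence of a direction and is not complete: Hnrnpk (0.80) and Eif4a1 (−0.51), which the study names too, are not in it. The study compared all stages with the pool and with each other, and tested candidate genes by RT-PCR as well. Here only later and early bodies without LIF are compared, so the values below do not test the study's findings. Of the 17, 16 were measured and 0 were called, with a median of −0.13 and of 0.09 with the Cy3 arrays turned, and Atp5b and Dppa5a had a p under 0.05. Ftl1, the ferritin light chain, differed by −0.81, with its 4 clones between −0.98 and −0.61, and the chaperones Hsp90aa1 and Hspa8 by −0.74 and −0.35. Rplp1, Rpl8 and Rps2 of the ribosome lay at −0.37, −0.31 and −0.02, Tkt, the transketolase, at −0.14, and Cox4i1 of respiratory complex IV at −0.11. The imprinted Sgce differed by 0.19, Ssr2 by 0.04 and Tubb5 by −0.03.

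Genes often used as internal controls had wide intervals. Actb differed by −0.03, but its 7 clones, all on slide 1, ranged from −0.75 to 0.55. Gapdh differed by 0.11 (interval −1.87 to 2.09) and Hprt by −0.12. Among the 670 genes with several clones on slide 2, the median range between clones was 0.13, only 2 genes had clones more than 1 apart, and 338 (50.4%) had clones on both sides of 0.

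The fit with 4 day means asked where along the course values differed. No clone was called in any step between neighbouring days. The largest counts were on either side of D2-LIF. D2-LIF minus D1-LIF had 1369 clones higher (15.6%) and 453 lower (5.15%) at an unadjusted p under 0.05, and D3-LIF minus D2-LIF had 219 higher (2.49%) and 1009 lower (11.5%). D4-LIF minus D3-LIF had 330 higher (3.75%) and 186 lower (2.11%). These splits depended on scale and direction. With the arrays scaled to an equal spread, D2-LIF minus D1-LIF had 131 higher and 265 lower, D3-LIF minus D2-LIF 118 and 396, and D4-LIF minus D3-LIF 192 and 70. With the Cy3 arrays turned, the steps had 81 and 16, 90 and 52, and 2 higher and 15 lower. These steps share the arrays of the middle days.

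List medians for the steps were taken on the ratios as deposited, with no test and no other scale. The median of the large subunit ribosomal proteins was 1.01 for D2-LIF minus D1-LIF, −0.997 for D3-LIF minus D2-LIF and 0.49 for D4-LIF minus D3-LIF, and the chaperones gave 1.05, −0.86 and 0.31. Genes of undifferentiated ES cells gave 0.34, −0.49 and −0.02, and all genes 0.09, −0.05 and −0.01. The large subunit genes had medians of −0.63 and −2.30 in Cy3 and Cy5 in D3-LIF bodies and 0.10 and −2.14 in D4-LIF bodies, against −0.31 and −2.85 in D1-LIF bodies and 0.69 and −1.60 in D2-LIF bodies. In Cy5 the later bodies lay between the 2 early days, and in Cy3 the D3-LIF bodies lay below both.

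Whether the difference was particular to bodies without LIF was tested as an interaction with the same comparison in the bodies with LIF, over 8740 clones with a value on all 16 arrays. With the Cy3 arrays turned, 0 clones were called and 91 had an unadjusted p under 0.05. On the ratios as deposited no clone was called, 306 (3.5%) had an unadjusted p under 0.05 and the smallest adjusted p was 0.649. Leaving out 1 array changed this: 6 clones were called without the D1+LIF array in Cy3, 88 without the D2-LIF array in Cy3 and 312 without the D4+LIF array in Cy3. The clone of A730082K24Rik differed by 1.19 without LIF and by −0.96 with LIF, a difference of 2.15 ± 0.31 (SE, adjusted p = 0.649 by limma), and that of Hnrnpk by 2.34 and −0.24, a difference of 2.58 ± 0.53. Mybl2 differed by −0.41 without LIF and by −0.35 with LIF, a difference of −0.07 ± 0.29. On the clones of all 16 arrays the median of the genes of undifferentiated ES cells was −0.26 without LIF and −0.06 with LIF; the difference between these medians was not tested.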

How the data were processed

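Per the labels, RNA was labelled with Cy3 or Cy5 and hybridised against a pooled control. The authors quantified the spots, scaled each channel to its own mean intensity and deposited linear ratios per spot. Ratios were taken to log2, duplicate spots (160 apart) averaged and arrays centred within slide. Clones with a value on all 8 arrays were tested with limma 3.58.1 in R 4.3.3 (later minus early, dye as block), with Benjamini-Hochberg adjustment over all of them and 0.05 as threshold; a fit per gene, the steps between days and the interaction with LIF followed, and the scripts were tested on simulated data. The number of arrays limits the precision. Symbols come from the platform annotation; 9866 of 15360 clones carried 1.

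The genes named were the 12 clones of smallest p in each direction with 1 sign in both dyes, and those measured of 17 genes the study names (an incomplete list). For each list the plan was 2 to 4 genes, which without a call meant the 2 of smallest p. Some of these, as in the hypoxia, trophoblast, translation and antioxidant lists, are not named above. Other list genes were picked for their known role after their values were seen, so the list genes shown are a selection. The members and lists were chosen with earlier results of these data known. Alternatives covered centring, scale, weights, dye block, direction, duplicate spots, clones tested, 2-fold limit, trend and arrays left out; centring within print grids, single dyes and turning the D1-LIF and D3-LIF Cy3 arrays were added after seeing the data. Channel intensities were not used here, so dim spots were not filtered.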

Additional observations from a re-analysis of the deposited data

Results flagged for a closer look

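In 4 of 192 groups of 4 arrays looked at, 1 array lay farther from the other 3 than Dixon's 95% limit allows; chance gives about 1 in 20 such groups. Among the later arrays these were Hdac10 (clone), with the D3-LIF array in Cy3 at 0.099, Gata4 (gene), with the D4-LIF array in Cy3 at −0.181, and Sox11 (gene), with the D3-LIF array in Cy5 at −0.127. Among the early arrays it was Dcn (gene), with the D1-LIF array in Cy3 at 0.004. All are log2 ratios, centred, and none of these genes was called.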

How the results depend on the processing

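The counts of 0 called clones and 0 called genes stood under all 28 alternatives run for clones and all 18 for genes; unadjusted, 88 to 553 clones and 40 to 267 genes had a p under 0.05, and the smallest adjusted p among clones was 0.121, with duplicate spots kept apart. The steps between days gave 0 calls at equal MAD and with the Cy3 arrays turned. Leaving out 1 of the 16 arrays gave 0 to 312 called clones for the interaction with LIF: 312 without the D4+LIF array in Cy3 (replicate 1), 88 without the D2-LIF array in Cy3, 6 without the D1+LIF array in Cy3 and 0 without each of the others; the cause was not tested. Of 653 values of the named clones under alternatives, 645 kept their sign and 8 reversed, all with the Cy3 arrays turned: Agr2 −0.06, Hdac10 −0.08, Nfe2l1 −0.09, Ahcy 0.02, Ptpa 0.02, Rab7 0.01, Supt6 0.01 and Ipo4 0.0041. The clones were picked for 1 sign in both dyes and a small p, which fixed or favoured a kept sign in advance. This count is therefore a description and no evidence of stability. Of 594 list medians, 583 moved by less than the spread between arrays. That spread was the SD of a list's medians over arrays of both dyes, so a median could change sign and still be counted. Large subunit ribosomal proteins, at −0.17 as deposited and 0.20 with the Cy3 arrays turned, were an example. The count therefore does not show that the medians were stable. The median of all genes lay between −0.055 and 0.011. No paired analysis was possible because the labels carry no replicate numbers; the dye is the block. A filter on dim spots and the study's SAM test were not run. Channel signals over background were not used here, so what dim spots limit was not measured.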
